A study of Homo sapiens with 9 samples.

Results

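The genes described here encode proteins of the cytosolic ribosome, measured in 2 human intestinal epithelial cell lines. They were chosen by name: every gene whose symbol starts with RPL or RPS followed by a digit or P, leaving out kinases of ribosomal protein S6 and mitochondrial ribosomal proteins. This gave 41 of the 927 genes named on the array, on 51 of its 1259 probe sets. Of the 41 genes, 30 encode large-subunit proteins (RPL) and 11 small-subunit proteins (RPS). Each gene's values come from the probe set that was brightest on average over the 9 arrays, and 32 genes had 1 probe set, 8 had 2 and 1 had 3.

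The study compared RNA from T84 and Caco-2, established lines grown from human colon carcinomas, to find glycosylation genes behind a sialylated CD44 variant epitope that interferon gamma raises in T84. Each of the 3 groups held 3 arrays. T84 cells given interferon gamma at 100 U/ml over 24 hours are called treated T84 below. The untreated T84 cells, at passage 68, and the untreated Caco-2 cells, at passage 37, were harvested at about 90% confluence. The sources used here do not give passage, confluence or plates for the treated cells, so the treatment and any difference in culture cannot be told apart. Each line is 1 cell line, so a difference between T84 and Caco-2 compares these lines and passages. Whether replicates were separate cultures is not said in the labels, and p-values cover the spread among these arrays alone, which may be technical.

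The cytosolic ribosome translates messenger RNA with a small subunit, which reads the codons, and a large subunit, which joins amino acids. Most of its proteins are needed in equal numbers, and ribosomal protein messenger RNAs are among the most abundant in growing cells. Most of these messenger RNAs begin with a C followed by a run of pyrimidines, the 5′ terminal oligopyrimidine (TOP) tract, through which the kinase mTOR and the protein LARP1 control their translation. Translation is not measured by an array: the values here are levels of RNA. Ribosomal protein genes also have many processed pseudogenes, copies that probes can fail to tell from the gene.

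The start windows show whether the genes on which the results turn carry a pyrimidine tract at their annotated starts. They are the genes with an entry in the RefSeq start table (GRCh38.p14) that were lower in treated than untreated T84, those higher in T84 than in Caco-2, and the 3 with the largest difference between T84 and Caco-2. Each window runs 5′ to 3′ from 15 bases before an annotated start through the first 15 transcribed bases. Capitals mark the unbroken run of pyrimidines (C or T) that begins at the start base, as far as the window reaches.
RPL13A (chr19:49487593-49487622, plus strand): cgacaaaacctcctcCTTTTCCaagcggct
RPL27A (chr11:8682777-8682806, plus strand): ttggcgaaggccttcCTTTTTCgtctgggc
RPL34, upstream start (chr4:108620561-108620590, plus strand): aaaggcttttttcttCCTCTTCCggggacg
RPL34, downstream start (chr4:108620614-108620643, plus strand): tctcttttccctgtcTTTatttccttacca
RPL7A (chr9:133348203-133348232, plus strand): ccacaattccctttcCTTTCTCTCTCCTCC
RPL14 (chr3:40457324-40457353, plus strand): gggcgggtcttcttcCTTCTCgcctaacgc
RPL39 (chrX:119791616-119791645, minus strand): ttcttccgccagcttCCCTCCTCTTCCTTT
RPLP1 (chr15:69452803-69452832, plus strand): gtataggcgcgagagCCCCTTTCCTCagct
RPL28 (chr19:55385917-55385946, plus strand): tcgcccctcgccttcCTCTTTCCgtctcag
RPL32 (chr3:12840436-12840465, minus strand): ggtgaggtgacccttgacctcctgggatcg
RPL32 (chr3:12841551-12841580, minus strand): gggttacgacccatcagcccttgcgcgcca
RPL32 (chr3:12841568-12841597, minus strand): tccctgctaggacccaggggttacgaccca
RPL23 had no entry in the table. The genes lower in treated T84 (RPL13A, RPL27A, RPL34, RPL7A) and those higher in T84 than in Caco-2 (RPL14, RPL39, RPLP1) each carry such a run at a start, as does RPL28. RPL32, among the largest differences between the lines, has none at its 3 starts in the table. Where transcription begins in these cells was not measured, so a gene without such a run is not shown to lack a TOP tract.

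Across the list, 33 of the 41 genes had 41 annotated starts in the table. A start with C followed by at least 4 more pyrimidines was found at 24 of these 41 starts (58.5%), against 4.07% of all 35116 starts in the table. By gene, 24 of the 33 (72.7%) had at least 1 such start, against 5.14% of all 27305 genes. In the 300-base windows around the starts, searched on both strands, CCGGAAG, the core recognised by ETS factors, stood at 43.9% of the ribosomal protein starts and 10.3% of all starts. The YY1 core AAGATGG, which can share 3 letters with CCGGAAG, stood at 12.2% and 5.84%. The TATA letters TATAAA stood at 7.32% and 11.5%, and the GC box GGGCGG at 48.8% and 45.0%. These letters describe the sequence and do not show that a factor was bound in these cells.

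The deposited values are log2 signals normalized between arrays, and array medians lay between 6.70 and 6.80. Interferon gamma response genes checked the labels of the treatment: 9 of 11 measured genes were higher in treated than untreated T84 and none was lower, with a median log2 difference of 3.17. The mean signal of the 5 epithelial markers measured, MUC1, MUC2, MUC13, LGALS3 and LGALS4, was lowest on the Caco-2 arrays, at 8.98 to 9.07, against 11.1 in untreated and 11.3 in treated T84. LGALS3, MUC13 and MUC1 lay above the array medians in both lines, but LGALS4 was near them in Caco-2, at 6.91 ± 0.08 (SD, n = 3) against 13.01 ± 0.03 in untreated T84, and MUC2 was near them in both, at 6.63 ± 0.08 and 7.03 ± 0.08. The mean of 6 leukocyte markers stayed between 5.69 and 5.92 in all groups, and that of 6 fibroblast and endothelial markers between 4.49 and 4.92. Of the latter, PECAM1, LUM and PDGFRB were lower in untreated T84 than Caco-2, by -0.62, -0.72 and -0.46, the same 3 were lower in treated T84, and SELE, VCAM1 and DCN passed in neither; of the leukocyte markers CD22 was higher in both T84 groups. The part of these markers in the line differences below was not tested. Treated replicate 3, untreated T84 replicate 3 and Caco-2 replicate 1 deviated together from their groups over all probe sets, with correlations of their deviations of 0.56, 0.48 and 0.76. Counts are therefore also given without these 3 arrays, an alternative chosen after seeing the data.

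Most ribosomal protein probe sets were bright. Of the 41, 28 had a mean log2 signal of at least 13, 6 lay from 11 to under 13 and 7 lay under 11, where the highest signal in the whole table was 14.55. The signal of a probe set depends on its probes as well as on RNA, so these bands do not rank the genes by abundance. Among the probe sets with the highest means were those of RPL41 (14.33) and RPS18 (14.00), and those with the lowest were RPL37 (5.11), RPL27A (5.50) and RPL32 (6.89). RPL41 is the shortest protein of the ribosome, and its log2 signal ran only from 14.27 to 14.38 over the 9 arrays. Replicates were close: the median SD over the members was 0.04 in either T84 group and 0.06 in Caco-2, below the 0.06, 0.07 and 0.10 over all probe sets. By suffix of the probe set identifier, 21 of the 41 representatives are specific to a transcript, 11 are shared among transcripts and 9 can cross-hybridise, so for 20 of the 41 the signal may include related genes or pseudogenes.

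**Figure D1:**
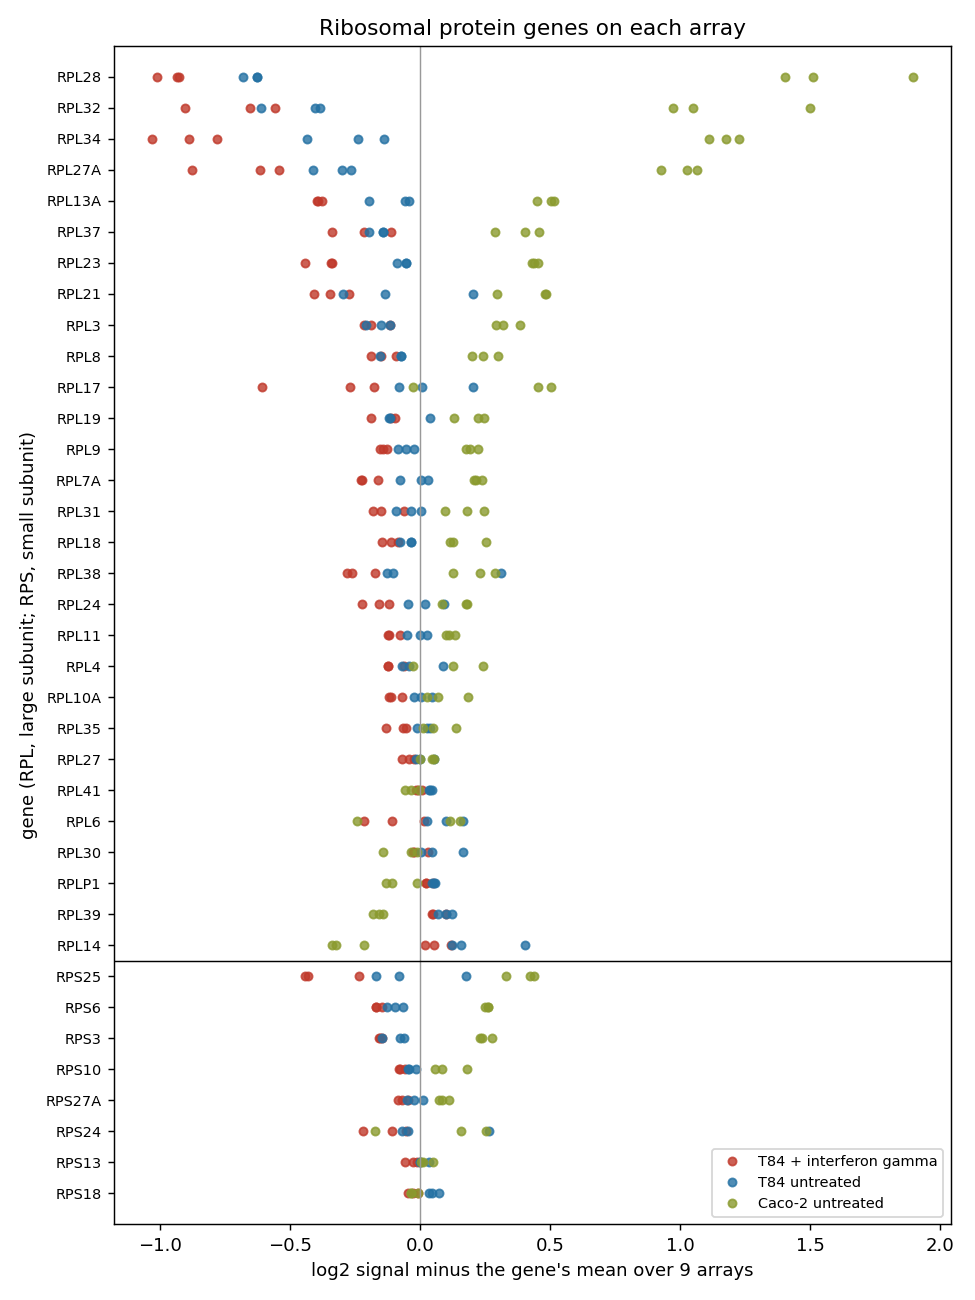
The log2 signal of 37 of the 41 ribosomal protein genes on each of the 9 arrays, minus the gene's mean over the 9 arrays (horizontal axis), with large-subunit genes above the line and small-subunit genes below it. Points are single arrays coloured by group; the 3 Caco-2 arrays lie far to the right for RPL28, RPL32, RPL34 and RPL27A and to the left for RPL14 and RPL39.

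Between treated and untreated T84 cells, a few large-subunit genes were lower after interferon gamma, by small amounts, and no ribosomal protein gene was higher. With limma and Benjamini-Hochberg adjustment over 1259 probe sets, 5 of the 41 genes were lower at an adjusted p below 0.05 (RPL34, RPL27A, RPL23, RPL13A and RPL7A, all large-subunit genes), none was higher and 36 did not pass. Over all probe sets, 5.8% were called lower and 4.37% higher. At an unadjusted p below 0.05, 12 of the 41 were lower and 0 higher, where 11.8% of all probe sets were lower and 7.63% higher. The median log2 difference over the 41 was -0.09, against -0.01 over all probe sets. In bulk RNA, fewer cells of a kind and less RNA per cell cannot be told apart.

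RPL34, a large-subunit protein, had the largest fall. Its log2 signal was 7.10, 7.00 and 6.85 on the treated arrays, 7.45, 7.64 and 7.75 on the untreated T84 arrays and 9.11, 9.06 and 8.99 on the Caco-2 arrays. The groups did not overlap, and all treated arrays were below all untreated ones. The treated values lie near the medians of the treated arrays, 6.75 to 6.76. No detection call was used here, so this probe set is not shown to be above background in treated T84. The log2 difference between treated and untreated T84 was -0.63 ± 0.09 (SE; limma adjusted p = 0.00286), which is 1.55-fold lower with a 95% interval from 1.34 to 1.78.

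RPL23, a large-subunit protein that can bind the p53 regulator MDM2 when free of the ribosome, read 12.53, 12.53 and 12.43 in treated T84 against 12.82, 12.79 and 12.82 in untreated T84. All treated arrays lay below all untreated ones. The log2 difference was -0.31 ± 0.04 (SE; limma adjusted p = 0.00244). Its other probe set, shared among transcripts, gave -0.63 (limma adjusted p = 0.00797). The call for RPL34 held in all 23 alternatives and that for RPL23 in all 22 that could test it. Both RPL23 probe sets are shared or cross-hybridising, so the setting limited to probe sets of neither kind could not test it.

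RPL13A is known to leave the large subunit in interferon gamma-treated myeloid cells and join the GAIT complex, which silences inflammatory messenger RNAs. Its log2 signal was 12.36, 12.38 and 12.36 in treated T84 and 12.56, 12.70 and 12.71 in untreated T84. The treated arrays were nearly equal and all lower than the untreated ones. The log2 difference was -0.29 ± 0.05 (SE; limma adjusted p = 0.00749), 1.22-fold lower with a 95% interval from 1.13 to 1.33, and its other probe set gave -0.30 (limma adjusted p = 0.00964). Both RPL13A probe sets are shared or cross-hybridising. Without the 3 arrays that deviate together, the adjusted p of RPL13A was 0.069, within a range from 0.00177 to 0.069 over its alternatives.

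RPL27A and RPL7A, both large-subunit proteins, passed by a smaller margin. RPL27A read 4.88, 4.95 and 4.62 in treated and 5.09, 5.20 and 5.23 in untreated T84, a log2 difference of -0.35 ± 0.09 (SE; limma adjusted p = 0.0442). RPL7A read 13.51, 13.45 and 13.44 in treated and 13.67, 13.59 and 13.70 in untreated T84, a log2 difference of -0.19 ± 0.04 (SE; limma adjusted p = 0.0299). Groups did not overlap for either gene. The RPL7A probe set is of the cross-hybridising kind. With probe sets that are neither shared nor cross-hybridising, only RPL34 and RPL27A of the genes called could be tested, and both stayed lower. The RPL27A values lie below the array medians in all groups. No detection call was used here, so that probe set is not shown to be above background in any group. RPL27A missed the threshold in 12 of 22 alternatives (adjusted p from 0.0219 to 0.148) and RPL7A in 10 of 22 (adjusted p from 0.00546 to 0.187). Leaving out treated replicate 3, untreated replicate 1, untreated replicate 3 or Caco-2 replicate 2 lowered the number of genes called to 3 each time, as did leaving out the 3 arrays that deviate together. The number rose to 7 when Caco-2 replicate 1 alone was left out.

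All 41 log2 differences between treated and untreated T84 were below 0 in the deposited values, where 56.5% of all probe sets were. In 26 of the 41 genes every treated array was below every untreated array, against 17.9% of all probe sets. In each of the 9 pairs of a treated and an untreated array, 36 to 39 of the 41 genes were lower in the treated array, against 46.1 to 60.3% of all probe sets. This shared direction depended on the scaling between arrays. After quantile normalization of the deposited values 28 of the 41 differences were below 0, 12 above and 1 at 0, with median -0.03. Over all probe sets 56.3% were below 0 in that setting, with a median of -0.01. After cyclic loess 31 of the 41 were below 0 and 10 above, with a median of -0.04. All probe sets then had 51.2% below 0 and a median of -0.003. Arrays were also centred on the median of all probe sets, of those outside the list or of bright ones outside the list. This moved every difference between the T84 groups by the same amount, here downward. All 41 therefore had to stay below 0, so these settings cannot test the shared direction. The share of all probe sets below 0 was 64.3%, 60.9% and 62.1%.

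Among the 11 small-subunit genes, none passed in treated against untreated T84, and their median log2 difference was -0.07. RPS25, which takes part in initiation from internal entry sites, came nearest. It read 12.19, 11.98 and 11.99 in treated and 12.60, 12.25 and 12.34 in untreated T84, without overlap, and its difference of -0.34 ± 0.10 (SE) had a limma adjusted p of 0.0648. It was past the threshold in 7 alternatives. RPS6, the protein that S6 kinases phosphorylate, differed by -0.07 ± 0.04 (SE; limma adjusted p = 0.447). RPS27A, made as a fusion with ubiquitin, differed by -0.05 ± 0.04 (SE; limma adjusted p = 0.64), and its sign turned after quantile normalization and cyclic loess.

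RPLP1, the acidic stalk protein that helps recruit elongation factors, was the only stalk gene measured. Its log2 difference between treated and untreated T84 was -0.02 ± 0.04 (SE; limma adjusted p = 0.901), and it too turned sign after quantile normalization and cyclic loess. RPL3, which lies near the site of peptide bond formation, differed by -0.02 ± 0.05 (SE), and its fold of untreated over treated had a 95% interval from 0.936 to 1.09. RPL28, RPL24 and RPL17 had larger differences of -0.31, -0.19 and -0.40 that did not pass (limma adjusted p = 0.16, 0.0743 and 0.235). RPL17 had the largest SE of the list, 0.17, with treated values from 12.16 to 12.59 and Caco-2 values from 12.74 to 13.27.

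**Figure D2:**
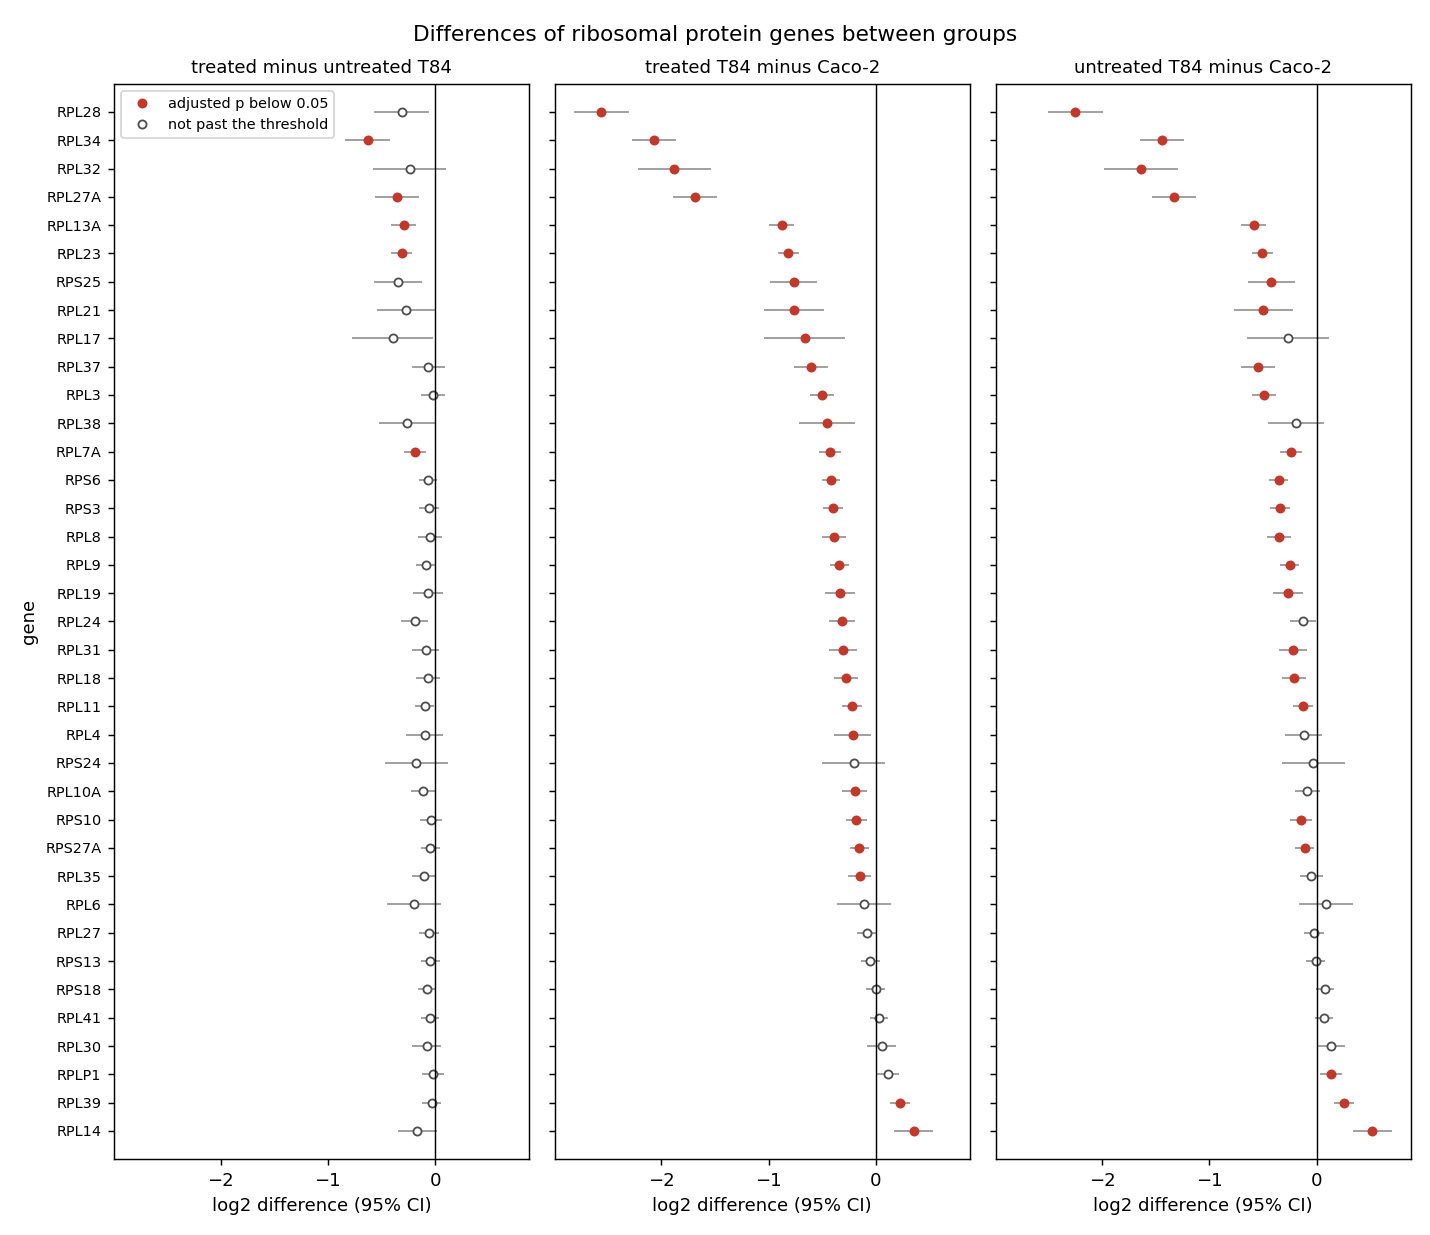
Log2 difference of 37 of the 41 ribosomal protein genes (vertical axis) in treated minus untreated T84, treated T84 minus Caco-2 and untreated T84 minus Caco-2, with 95% intervals from limma (n = 3 arrays a group); filled points have an adjusted p below 0.05. In the left panel 5 points are filled, all below 0, and in the other panels 29 and 24 are filled, with RPL28, RPL34, RPL32 and RPL27A farthest below 0.

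The lines differed more than the treatment did, and unevenly over the list. In untreated T84, 23 of the 41 genes were lower than in untreated Caco-2, 3 were higher and 15 did not pass, while 24.2% of all probe sets were called lower and 19.5% higher. In treated T84, 29 were lower than in Caco-2, 2 were higher and 10 did not pass, against 26.2% and 19.4% of all probe sets. The median log2 difference was -0.16 for untreated and -0.28 for treated T84, where all probe sets had a median of 0.02 in both. In 23 genes every untreated T84 array was below every Caco-2 array (25.8% of all probe sets), and in 31 every treated one was (28.8%). Both comparisons use the same Caco-2 arrays and are not independent.

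Scaling moved these counts. After quantile normalization 19 genes of treated T84 were lower than in Caco-2 and 4 higher, and after cyclic loess 23 and 7. For untreated T84 against Caco-2 the counts were 17 lower and 3 higher after quantile normalization and 18 and 7 after cyclic loess. Without the 3 arrays that deviate together, 24 were lower and 3 higher in treated T84, and 17 and 3 in untreated T84. The share of all probe sets called in these settings is not given here, so these counts cannot be set against it. For treated T84 the median log2 difference was -0.10 after quantile normalization and -0.16 after cyclic loess. All probe sets had medians of 0.05 and 0.03. For untreated T84 it was -0.10 and -0.09, against 0.05 and 0.02. Without the 3 arrays it was -0.29 for treated and -0.16 for untreated T84, against 0.03 and 0.02.

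The widest differences between the lines were those of 4 large-subunit genes, each at least 2-fold lower in both T84 groups than in Caco-2. RPL28 read 7.79, 7.78 and 7.71 in treated T84, 8.03, 8.09 and 8.09 in untreated T84 and 10.61, 10.23 and 10.12 in Caco-2. Every Caco-2 array was far above every T84 array. The log2 difference from Caco-2 was -2.25 ± 0.11 (SE) in untreated T84 and -2.56 ± 0.11 in treated T84, which are 4.76-fold and 5.90-fold lower (limma adjusted p = 7.63e-07 and 2.67e-07).

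RPL32 read 6.23, 6.33 and 5.99 in treated T84, 6.28, 6.50 and 6.48 in untreated T84 and 8.39, 7.86 and 7.94 in Caco-2. The T84 groups overlapped with each other and neither reached Caco-2. Its log2 difference from Caco-2 was -1.64 ± 0.15 (SE) in untreated and -1.88 ± 0.15 in treated T84. RPL34, with the values given above, differed from Caco-2 by -1.44 ± 0.09 (SE) and -2.07 ± 0.09, and RPL27A, at 6.56, 6.42 and 6.52 in Caco-2, by -1.33 ± 0.09 and -1.69 ± 0.09. These 4 genes kept their calls against Caco-2 in all alternatives that could test them. Their representative probe sets are specific to a transcript by suffix and lie at mean signals of 8.72, 6.89, 7.88 and 5.50, below most of the list. The T84 values of RPL27A and RPL32 lie below the array medians. Their differences from Caco-2 are therefore differences of signal on probe sets not shown to be above background in T84. The Caco-2 values of RPL27A also lie below the medians of the Caco-2 arrays, 6.75 to 6.80. Its probe set is thus not shown to be above background in any group. The treated T84 values of RPL34 lie near the medians, with the same limit for that group.

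Among the other large-subunit genes, RPL13A, RPL23, RPL37, RPL21 and RPL3 had the next largest differences in untreated T84. RPL13A read 13.26, 13.27 and 13.20 in Caco-2 and RPL23 read 13.33, 13.31 and 13.31, all above every T84 array. Their log2 differences from Caco-2 in untreated T84 were -0.59 ± 0.05 (SE) and -0.51 ± 0.04, and in treated T84 -0.88 ± 0.05 and -0.82 ± 0.04. RPL37 was lower by -0.54 ± 0.07 (SE) in untreated and -0.60 ± 0.07 in treated T84, on the dimmest probe set of the list, whose values lie below the array medians in all groups and are not shown to be above background. RPL21 differed by -0.49 ± 0.12 (SE) in untreated T84, a call lost without the 3 arrays that deviate together (limma adjusted p = 0.0899, in a range from 0.000768 to 0.0899 over the alternatives). RPL3 read 13.24, 13.27 and 13.34 in treated T84, 13.31, 13.25 and 13.34 in untreated T84 and 13.75, 13.84 and 13.78 in Caco-2, so the line difference of -0.49 ± 0.05 (SE) stood with hardly any difference between the T84 groups.

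**Figure D3:**
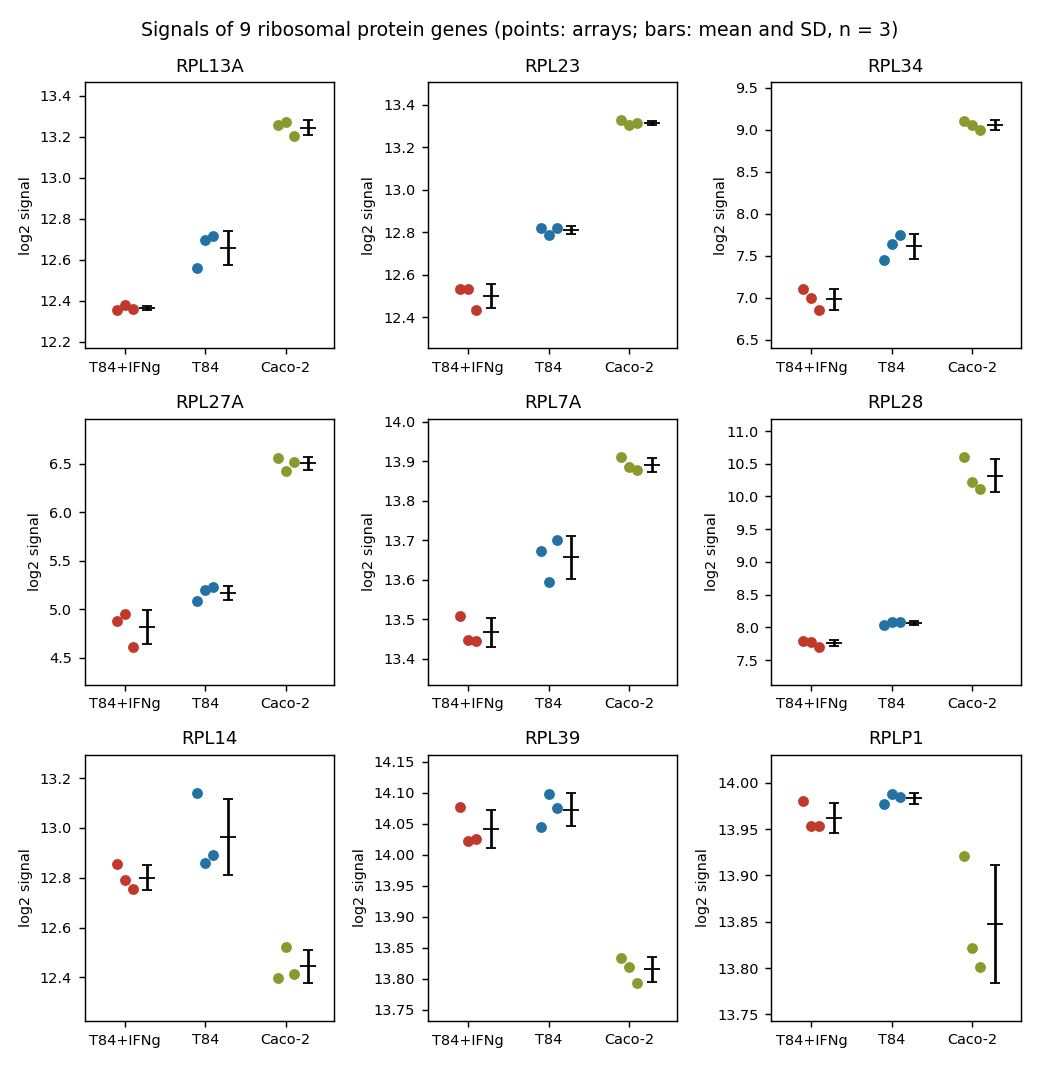
Log2 signal (vertical axis, a separate range in each panel) of 9 large-subunit genes on each array, by group; bars are the mean and SD of 3 arrays. RPL13A, RPL23, RPL34, RPL27A, RPL7A and RPL28 rise from treated T84 through untreated T84 to Caco-2, whereas RPL14, RPL39 and RPLP1 are lowest in Caco-2.

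RPL14, RPL39 and RPLP1 ran the other way. RPL14, a large-subunit protein, read 12.85, 12.79 and 12.76 in treated T84, 13.14, 12.86 and 12.89 in untreated T84 and 12.40, 12.52 and 12.41 in Caco-2. All T84 arrays were above all Caco-2 arrays. Its log2 difference from Caco-2 was 0.52 ± 0.08 (SE; limma adjusted p = 0.000704) in untreated T84 and 0.36 ± 0.08 (SE; limma adjusted p = 0.00554) in treated T84.

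RPL39, a small protein in the wall of the exit tunnel, read 14.08, 14.02 and 14.02 in treated T84, 14.04, 14.10 and 14.08 in untreated T84 and 13.83, 13.82 and 13.79 in Caco-2. Its groups did not overlap between lines, and it was higher than in Caco-2 by 0.26 ± 0.04 (SE; limma adjusted p = 0.000738) in untreated and 0.23 ± 0.04 (SE; limma adjusted p = 0.00149) in treated T84. The calls for RPL14 and RPL39 held in all alternatives that could test them. The RPL14 and RPL39 probe sets are of the shared kind, so neither was among the 25 genes with a probe set that is neither shared nor cross-hybridising.

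RPLP1 read 13.98, 13.99 and 13.99 in untreated T84, 13.98, 13.95 and 13.95 in treated T84, and 13.92, 13.82 and 13.80 in Caco-2. It was higher than in Caco-2 by 0.14 ± 0.04 (SE; limma adjusted p = 0.0353) in untreated T84, a call lost in 12 of 23 alternatives, among them leaving out any single array except Caco-2 replicate 1 (adjusted p from 0.00268 to 0.21 over all). In treated T84 the difference was 0.11 ± 0.04 (SE; limma adjusted p = 0.0638), and without Caco-2 replicate 1 it passed at 0.0113, in a range from 0.00113 to 0.17 over the alternatives.

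Against Caco-2, 7 of the 11 small-subunit genes were lower in untreated T84, none was higher and 4 did not pass, and treated T84 gave these same counts. RPS25 had the largest difference. It read 12.86, 12.84 and 12.75 in Caco-2, above all T84 arrays, and differed by -0.42 ± 0.10 (SE) in untreated and -0.76 ± 0.10 in treated T84. RPS6 read 13.79, 13.80 and 13.80 in Caco-2, 13.47, 13.44 and 13.41 in untreated T84 and 13.39, 13.37 and 13.37 in treated T84. RPS3, which lines the channel where messenger RNA enters, read 14.03, 13.99 and 14.00 in Caco-2, 13.61, 13.68 and 13.69 in untreated T84 and 13.60, 13.61 and 13.60 in treated T84. Both were lower than in Caco-2, by -0.35 ± 0.04 (SE) and -0.34 ± 0.04 in untreated T84, and both kept these calls in all alternatives that could test them.

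Smaller differences were less stable. RPS10 and RPS27A passed as lower than Caco-2 in untreated T84, with log2 differences of -0.14 and -0.11, and missed the threshold in 14 of 22 and 19 of 23 alternatives. The RPS27A difference turned sign after quantile normalization, at 0.0046 in untreated and 0.014 in treated T84. RPS13, RPS18 and RPS24 did not pass in either comparison with Caco-2 in the deposited values. Their differences in untreated T84 were -0.01, 0.08 and -0.03. After cyclic loess RPS18 was called higher in both T84 groups, and with array weights RPS24 was called lower in treated T84. RPS24 had wide replicate spread, with Caco-2 values of 13.01, 13.44 and 13.35, so its 95% interval reached a fold of 1.25 lower.

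In the large subunit, RPL6, RPL27, RPL30 and RPL41 did not pass against Caco-2 with either T84 group in the deposited values. Other settings moved them. After quantile normalization RPL27 was higher in treated T84 by 0.10 (limma adjusted p = 0.0413), and RPL30 was called higher in both T84 groups. After cyclic loess RPL30 and RPL41 were called higher in both. With array weights RPL6 and RPL27 were called lower in treated T84. RPL6 read 12.82, 13.21 and 13.17 in Caco-2, where replicate 1 stood below the others, and 13.23, 13.16 and 13.09 in untreated T84. RPL27 read 13.68, 13.67 and 13.62 in Caco-2, which overlapped the untreated T84 values of 13.68, 13.61 and 13.62. A further 6 genes (RPL4, RPL10A, RPL17, RPL24, RPL35 and RPL38) were lower than Caco-2 in treated T84 and did not pass in untreated T84. None of these 6 passed in treated against untreated T84, the comparison that tests whether those differences differ, and their log2 differences there were -0.10, -0.11, -0.40, -0.19, -0.10 and -0.27.

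Over all 41 genes, the group means lay in the order treated T84, untreated T84, Caco-2 from low to high in 33. In RPL6, RPL14, RPL30, RPL39, RPL41, RPLP1 and RPS18, which were among the others, untreated T84 had the highest mean. For 36 genes the step between the T84 groups did not pass the test. Only RPL34, RPL23, RPL13A, RPL27A and RPL7A passed the test at both steps, and because the steps share the untreated T84 arrays they are not independent.

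Differences were larger on the dimmer probe sets of the list. In untreated T84 against Caco-2 the median log2 difference was -0.11 over the 28 genes with mean signals of at least 13, -0.34 over the 6 from 11 to under 13 and -1.33 over the 7 under 11. In treated T84 against Caco-2 it was -0.19, -0.71 and -1.69, and in treated against untreated T84 -0.07, -0.30 and -0.27. Across the 41 genes, the Pearson correlation of mean signal with the absolute difference was -0.73, -0.74 and -0.54, where genes share arrays and are not independent replicates. Over the 1208 probe sets outside the list it was 0.20, 0.22 and 0.18. Only 12 probe sets outside the list had a mean signal of at least 13. The part of signal saturation in this pattern was not tested.

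**Figure D4:**
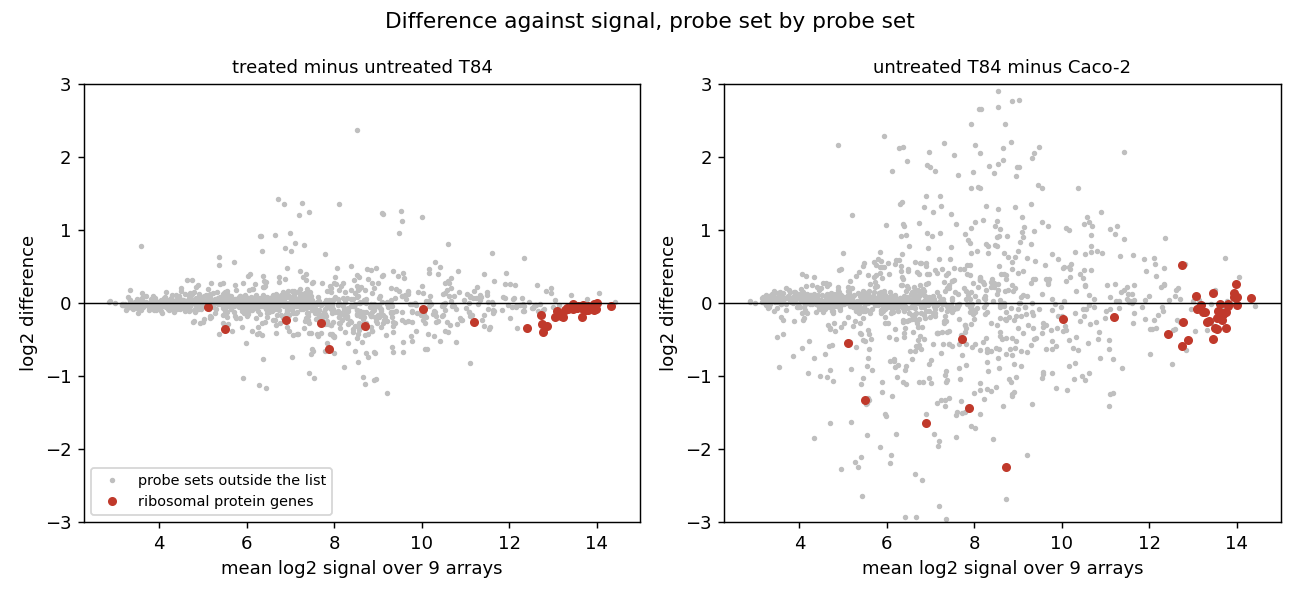
Log2 difference (vertical axis) against mean log2 signal over 9 arrays (horizontal axis) for treated minus untreated T84 (left) and untreated T84 minus Caco-2 (right), with the 41 ribosomal protein genes in red and the 1208 probe sets outside the list in grey. The red points crowd close to 0 above a signal of 13 and lie farther below 0 at lower signals; 7 and 30 grey points lie beyond the axis limits of 3.

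Where a gene had several probe sets, they mostly gave the same direction. In treated against untreated T84, 8 of the 51 probe sets were lower and none was higher. RPL31 gave -0.30 and -0.29 in treated T84 against Caco-2 on probe sets with mean signals of 10.04 and 7.10. RPL23 differed from Caco-2 in treated T84 by -0.82 on the brighter and -1.51 on the dimmer probe set.

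The array held few other genes of translation. No listed paralog of a ribosomal protein gene, S6 kinase, ribosome assembly factor, mitochondrial ribosomal protein or regulator of translation was among the named genes. Of 33 listed translation factors and ribosome-bound proteins whose messenger RNAs are of the TOP type, 7 were measured. In treated against untreated T84 none of the 7 was higher or lower. Against Caco-2, 5 were lower and 1 higher in both untreated and treated T84.

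EEF1A1, the elongation factor that brings aminoacyl-tRNA to the ribosome, had the largest difference of the 7. Its mean signal in Caco-2 was 8.83 ± 0.17 (SD, n = 3), above the 7.00 ± 0.05 of untreated T84 and the 6.89 ± 0.20 of treated T84, a log2 difference of -1.83 ± 0.11 (SE; limma adjusted p = 2.91e-06) for untreated T84 against Caco-2. The T84 means of EEF1A1 lie near the array medians, and its probe set is not shown to be above background in T84. RACK1, a scaffold protein on the small subunit, was lower by -0.37 ± 0.05 (SE), the translocation factor EEF2 by -0.28 ± 0.05, and the initiation factor subunits EIF3D and EIF3F by -0.28 ± 0.06 and -0.27 ± 0.07. EIF3C was higher by 0.35 ± 0.08 (SE), and HNRNPA1 did not pass at 0.03 ± 0.06. FAU, which encodes small-subunit protein eS30 fused to a ubiquitin-like protein and falls outside the naming rule, was higher in untreated T84 than in Caco-2 by 0.17 ± 0.06 (SE; limma adjusted p = 0.0321).

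Of 6 housekeeping genes outside the ribosome, none passed in treated against untreated T84, with a median log2 difference of -0.02. Against Caco-2, GUSB was higher in untreated T84 by 0.68 ± 0.10 (SE), LDHB was lower by -0.39 ± 0.05 and ACTG1, RPN1, LDHA and HSP90AB1 did not pass.

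The member nearest to the median profile of the list over the 9 arrays was RPL9, a large-subunit protein, with a Pearson correlation of 0.99. RPL9 read 13.23, 13.20 and 13.21 in treated T84, 13.33, 13.27 and 13.30 in untreated T84 and 13.55, 13.58 and 13.53 in Caco-2. Of the 41 genes, 22 had a correlation of at least 0.9 with that profile and 7 had one below 0, the lowest being RPL39 at -0.89, RPLP1 at -0.75 and RPL14 at -0.71. The profile is the median over these same 41 genes, so each gene helped to make it. These counts do not test whether the likeness is particular to the list. Outside the list, the genes most like the profile over the same 9 arrays were LTA4H (0.99), ARSL (0.98) and BPHL (0.98). The 9 points fall into 3 groups of replicates, so these correlations mostly follow the group means.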

How the data were processed

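RNA labelled with biotin from 0.5 ug of total RNA per sample had been hybridised to 9 single-colour arrays, 3 per group. The deposited values are log2 signals per probe set, summarised by RMA per the submitters' processing notes; the sources used here give neither the RMA version nor the build of the probe sets, and the number of arrays limits the precision. Probe sets were named through RefSeq accessions without version: 1043 received 1 symbol and 216 none, which stayed in all tests. One model with group as its factor was fitted to all 9 arrays and 1259 probe sets with limma 3.58.1 (lmFit, eBayes; 6 residual and 2.12 prior degrees of freedom) in R 4.3.3, with two-sided p-values, Benjamini-Hochberg adjustment and a threshold of 0.05. The fit was tested on simulated data.

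Of the members, 4 are counted in all totals but not reported by name or drawn by name here. The members and gene lists were chosen with earlier results of these data known. Genes were named by rule: in each comparison up to 8 largest differences each way past the threshold, the 3 highest and 3 lowest mean signals, stalk genes and RPS27A; other members were added after their values were seen. Same-numbered arrays did not all deviate together: over all probe sets their correlations ran from -0.64 to 0.56. Over the members alone they were 0.37, 0.57 and 0.23 between the T84 groups but from -0.50 to -0.10 with Caco-2. Numbers were therefore not used to pair arrays. Alternatives were 12 other settings, leaving out each of 9 arrays, and 2 settings added after seeing the data. Start windows come from RefSeq (GRCh38.p14).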

Additional observations from a re-analysis of the deposited data

How the results depend on the processing

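Counts and medians over the 41 genes are given by setting. The share of all probe sets called in each setting is not given, so these counts cannot be set against it. Without each array in turn, genes lower in treated than untreated T84 ranged from 3 to 7 and genes higher from 0 to 0, with medians from -0.11 to -0.08. For treated T84 against Caco-2 the ranges were 26 to 30 lower, 2 to 3 higher and medians from -0.32 to -0.26, and for untreated T84 against Caco-2 17 to 21, 2 to 3 and -0.17 to -0.13. With the replicate number as a block, 4 genes were lower in treated than untreated T84 (RPL34, RPL23, RPL13A and RPS25, with RPL27A at an adjusted p of 0.107 and RPL7A at 0.0743), 27 were lower and 2 higher in treated T84 than Caco-2, and 19 and 2 in untreated T84; the labels do not say that the numbers pair the arrays. Quantile normalization gave medians of -0.032 for treated against untreated T84 and -0.10 for treated T84 against Caco-2, with 4 genes higher and 19 lower there. Cyclic loess gave -0.16 for treated T84 against Caco-2 and -0.087 for untreated T84 against Caco-2, with 7 genes higher in each. Array weights moved the treated T84 and Caco-2 median to -0.33, and trended, robust moderation called 6 genes higher in untreated T84 than Caco-2. An adjusted p below 0.01 left 3 genes lower in treated than untreated T84. Among the 25 genes with a probe set that is neither shared nor cross-hybridising, 3 were lower in treated than untreated T84, 18 lower and 0 higher in treated T84 than Caco-2, and 15 lower and 1 higher in untreated T84 than Caco-2; here fewer genes were tested. Without the 3 arrays that deviate together, a setting added after seeing the data, 3 genes were lower in treated than untreated T84; centring on bright probe sets outside the list was also added then and called 7. Signs turned for RPLP1 (treated against untreated T84, 0.030 after quantile normalization and 0.032 after cyclic loess) and RPS27A (0.0096 and 0.0061 there, 0.014 for treated and 0.0046 for untreated T84 against Caco-2 after quantile normalization). The cause of the other shifts was not tested. With 3 arrays a group, the smallest log2 difference called among the genes was -0.11 (RPS27A, untreated T84 against Caco-2).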
